A study of Homo sapiens with 16 samples.

Results

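The regions described here are H3K27ac domains that were listed in the Ewing sarcoma line TC-32 with a −log10 q of at least 5 and that no H3K27ac domain of the line TC-71 overlapped by even 1 bp. They were chosen by the deposited H3K27ac −log10 q of TC-32 and by the absence of a TC-71 interval. They are called TC-32-only domains, and 7078 of the 36355 TC-32 H3K27ac domains on chromosomes 1 to 22 and X met this rule. At the same threshold 21127 TC-32 domains were listed, so 33.5% of them were TC-32-only. The other 14049 overlapped a TC-71 domain and serve as the comparison. Because the rule used the H3K27ac lists of both lines, the width, fold enrichment and distance of the domains are given as a description. The SMC1 and BORIS lists and the staining of chromosome bands were not part of the rule.

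Both lines are established cultures of Ewing sarcoma, a tumour of bone and soft tissue whose usual driver is the fusion protein EWSR1-FLI1. The labels give TC-32 as a line from diagnosis and TC-71 as one from after chemotherapy, so each phase of therapy is represented by a single line. Formaldehyde-fixed cultures of each line, grown in RPMI-1640 with serum and with no treatment named in the labels, were processed with antibodies against H3K27ac, SMC1 and BORIS and as input, in 16 samples, 2 per line and antibody. The deposited data are 6 peak lists, each called against the input of its own line and shared by both samples, and the labels do not say whether the pair came from separate cultures, so no value has a replicate error and no test between the lines was possible. Intervals given with shares are exact (Clopper-Pearson) 95% intervals that cover counting error only. Depth is unknown from the lists, and the TC-32 lists are longer for both marks: 36355 H3K27ac domains in TC-32 against 26334 in TC-71, and 32720 SMC1 peaks in TC-32 against 18264 in TC-71. No expression data were used here, so the cell type was not checked against marker genes.

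H3K27ac is placed on nucleosomes by the acetyltransferases p300 and CBP and marks active promoters and enhancers; long stretches of it often lie over enhancers of developmental regulators. SMC1 is a subunit of cohesin, the ring that extrudes chromatin loops, is halted at sites of the insulator protein CTCF and is also found at active enhancers and promoters. In Ewing sarcoma the fusion protein opens enhancers at GGAA repeats that are silent in most other cells.

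TC-32-only domains were narrow and modestly enriched. Their width ranged from 193 to 25725 bp with a median of 1609 bp, and domains that overlapped TC-71 had a median of 1885 bp. The authors' fold enrichment over input ranged from 1.74 to 10.6 with a median of 3.80 in TC-32-only domains, against a median of 5.20 in overlapping ones. A width under 1 kb was found for 28.6% of TC-32-only and 14.4% of overlapping domains, and a width of 5 kb or more for 6.53% and 9.97%. TC-71 domains at the same threshold with no overlapping TC-32 domain were narrow too, with a median of 1248.5 bp and 41.4% under 1 kb. Their median fold in the TC-71 list was 4.10. Together the TC-32-only domains covered 14.7 Mb, against 37.0 Mb in overlapping domains. Wider members were also more enriched: the median fold was 3.69 under 1 kb, 3.71 from 1 to 2 kb, 3.94 from 2 to 5 kb and 4.45 at 5 kb or more.

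**Figure D1:**
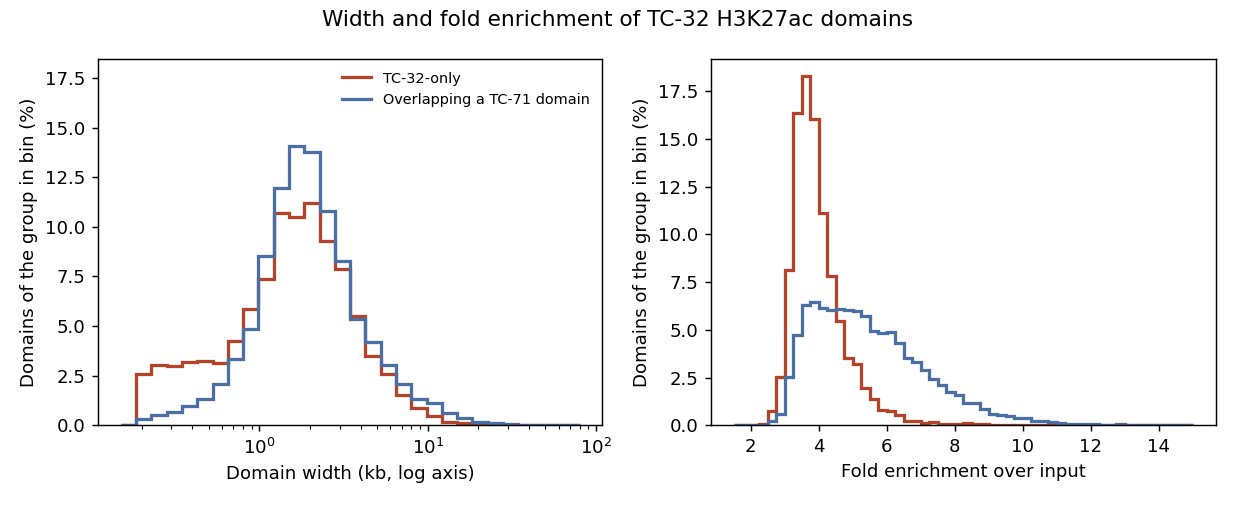
Width in kb on a log axis (left) and the authors' fold enrichment (right) of TC-32 H3K27ac domains with a −log10 q of at least 5, as the percentage of each group per bin. TC-32-only domains (n = 7078) have a shoulder of widths under 1 kb and folds gathered near 3.80; domains that overlap a TC-71 domain (n = 14049) spread to higher folds.

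Domains near the threshold made up much of the group. Of the TC-32 domains with a −log10 q from 5 to 7.5, 66.5% were TC-32-only, and the share was 52.4% from 7.5 to 10, 26.7% from 10 to 20, 6.66% from 20 to 30, 1.62% from 30 to 40 and 1.23% above 40. The 5 members just inside the threshold had folds of 3.05 to 3.82 and widths of 318 to 3800 bp, and the 5 unshared domains just outside it had folds of 3.17 to 3.76 and widths of 340 to 5291 bp. With no threshold beyond the deposited one, 52.9% of the TC-32 domains lacked a TC-71 domain. In the opposite direction, 11.5% of the TC-71 domains with a −log10 q of at least 5 lacked a TC-32 domain, which is 1680 of 14566.

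The strongest members are named by the deposited −log10 q; the gene given with a band is textbook background, since gene positions of the files' build (hg19) were not used here and overlap with a gene was not tested. The pair at the head of the list lay at 12q24.21, the band of TBX3 and TBX5, transcription factors of limb and heart development. One is at chromosome 12, 114909629 to 114920588 (fold 9.31), and the other, the widest of all members at 25725 bp, at 114827841 to 114853565 (fold 9.71). Within 200 kb of the centre of the wider one, 16 TC-32 H3K27ac domains were listed, 7 of them members, and 0 TC-71 domains. At 3q24, the band of the neural zinc-finger genes ZIC1 and ZIC4, the domain at chromosome 3, 147109721 to 147114260 (fold 9.34) was 846837 bp from the nearest TC-71 domain. At 13q34, the band of the neural progenitor gene SOX1, the domain at chromosome 13, 112720371 to 112728806 had the highest fold of all members, 10.6, and a second one of 18205 bp lay at 112741241 to 112759445. At 18q22.3, the band of NETO1, which encodes an auxiliary subunit of glutamate receptors, the domain at chromosome 18, 70531249 to 70538481 (fold 9.06) was 1156197 bp from TC-71 acetylation.

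Further members among the 12 strongest differed in width. Those over 5 kb lay at 11q24.2 (chromosome 11, 125980816 to 125987056, fold 8.25), the band of the hedgehog co-receptor gene CDON, and at 1q32.3 (chromosome 1, 214149107 to 214164854, fold 6.08), the band of the homeobox gene PROX1. Shorter ones lay at 19q13.43 (chromosome 19, 58545396 to 58546062, 667 bp, fold 10.1), at 10q23.32 (chromosome 10, 92922026 to 92924170, 2145 bp, fold 9.86), the band of the Polycomb gene PCGF5, and at Xp11.22 (chromosome X, 53252869 to 53255132, 2264 bp, fold 8.66), the band of the histone demethylase gene KDM5C. All 6 of the 12 strongest members that were at least 5 kb wide held a TC-32 SMC1 peak, and those at 19q13.43, 10q23.32 and Xp11.22 held none. A member of 3305 bp at 19p13.3 (chromosome 19, 2461134 to 2464438, fold 8.51) held a TC-32 SMC1 peak of fold 9.17. Among the 100 strongest members, 27 were at least 5 kb wide and 23 of these had TC-32 SMC1, while 25 were under 1500 bp and 5 of these had it. The domain at 1q22 (chromosome 1, 155828562 to 155831564, fold 5.83) was the third by −log10 q, yet lay 930 bp from a TC-71 domain.

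Short, strongly enriched members were also seen on chromosome 19 at bands known for arrays of KRAB zinc-finger genes, repressors of transposable elements. At 19p12, 19q13.41, 19q13.42 and 19q13.43, a set of bands chosen after values were seen, 48 of 205 TC-32 domains were TC-32-only (23.4%, 17.8 to 29.8%), a share below the 33.5% of all domains. Their median width was 813 bp and their median fold 4.55, against 1616 bp and 3.80 in TC-32-only domains elsewhere. A TC-32 SMC1 peak lay in 3 of the 48 (6.25%, 1.31 to 17.2%), against 23.6% (22.6 to 24.6%) of TC-32-only domains of all widths elsewhere; among all TC-32-only domains under 1 kb the share was 11.3%, inside the interval of the 48. Examples were at 19p12 (chromosome 19, 23577146 to 23578341, fold 7.72; and 20277992 to 20279083, fold 9.12) and 19q13.42 (53695797 to 53696622, fold 8.94).

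The widest members after 12q24.21 had lower folds. They lay at 1q41 (chromosome 1, 218544031 to 218568500, fold 4.69), the band of the growth factor gene TGFB2, at 9q33.3 (chromosome 9, 126091017 to 126113848, fold 4.997), at 3p22.3 (chromosome 3, 35674653 to 35697378, fold 5.82), the band of the neuronal gene ARPP21, and at 8p22 (chromosome 8, 13343068 to 13362415, fold 4.97), the band of DLC1. The members at 3p22.3 and 13q34 were 311196 bp and 481991 bp from TC-71 acetylation, while the one at 8p22 was 9083 bp away and the one at 1q41 was 7136 bp away.

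The next comparison asked whether cohesin lay at TC-32-only domains and in which line. In TC-32, an SMC1 peak overlapped 1661 of the 7078 TC-32-only domains (23.5%, 22.5 to 24.5%), against 29.4% (28.6 to 30.1%) of overlapping domains and 27.4% of both together. In TC-71, an SMC1 peak overlapped 246 TC-32-only domains (3.48%, 3.06 to 3.93%), against 12.6% (12.1 to 13.2%) of overlapping domains and 9.55% of both together. With the TC-32 SMC1 list cut to the length of the TC-71 list, the TC-32 share was 6.32% (5.76 to 6.91%) in TC-32-only and 12.97% (12.4 to 13.5%) in overlapping domains, beside the unchanged TC-71 shares of 3.48% and 12.6%. The size of the contrast between the lines thus depends on the length of the lists. At equal length the intervals of the lines stayed apart in TC-32-only domains and overlapped in overlapping ones. With the full lists, SMC1 was listed in both lines at 239 TC-32-only domains, in TC-32 alone at 1422, in TC-71 alone at 7 and in neither line at 5410 (76.4%). Per Mb of covered sequence there were 131 TC-32 SMC1 peaks in TC-32-only domains against 144 in overlapping ones, and 16.8 TC-71 SMC1 peaks against 51.4. The lower TC-71 share in TC-32-only domains held on 23 of 23 chromosomes, and the lower TC-32 share on 22.

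With all domains at the threshold pooled, the gap in TC-71 SMC1 was present at every width, and that in TC-32 SMC1 was not. Under 1 kb, TC-71 SMC1 lay in 4.30% (3.46 to 5.27%) of TC-32-only domains and 12.3% (10.9 to 13.8%) of overlapping ones. From 1 to 2 kb the shares were 3.39% (2.68 to 4.22%) and 9.43% (8.67 to 10.2%), and from 2 to 5 kb 2.501% (1.90 to 3.22%) and 12.7% (11.8 to 13.7%). At 5 kb or more they were 5.19% (3.36 to 7.63%) in TC-32-only domains and 25.3% (23.03 to 27.6%) in overlapping ones. TC-32 SMC1 lay in 21.5% (19.9 to 23.3%) of TC-32-only and 20.1% (19.01 to 21.133%) of overlapping domains from 1 to 2 kb wide, and in 30.96% (29.1 to 32.9%) and 32.9% (31.6 to 34.2%) from 2 to 5 kb, where the intervals overlap. It was less frequent in TC-32-only domains under 1 kb, at 11.3% (9.96 to 12.8%) against 21.4% (19.7 to 23.3%), and at 5 kb or more, at 48.7% (44.1 to 53.4%) against 65.4% (62.9 to 67.9%).

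**Figure D2:**
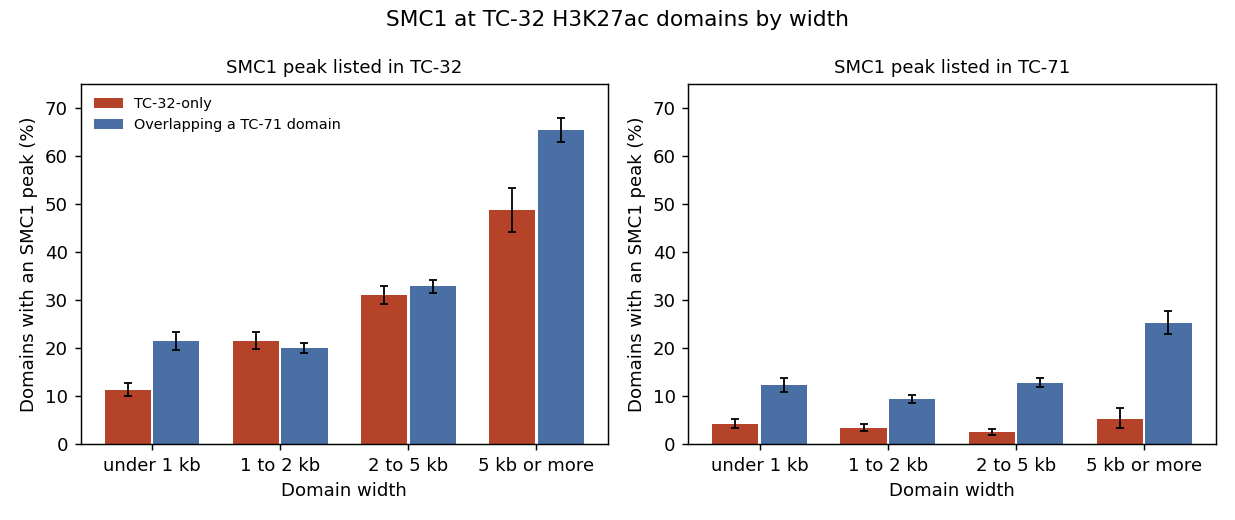
Percentage of TC-32 H3K27ac domains that hold an SMC1 peak of TC-32 (left) and of TC-71 (right) in 4 classes of width; bars are shares and error bars exact 95% intervals for counting error. TC-71 SMC1 is less frequent in TC-32-only domains in all 4 classes, with 3.39% against 9.43% from 1 to 2 kb and 5.19% against 25.3% at 5 kb or more. The TC-32 shares are close at 1 to 5 kb with all domains at the threshold pooled.

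The order for TC-32 SMC1 turned round among strong domains. At a −log10 q from 5 to 7.5 it lay in 15.7% (14.5 to 16.9%) of TC-32-only and 23.9% (21.97 to 26.0%) of overlapping domains, and from 20 to 30 in 47.3% (40.7 to 54.1%) and 30.4% (28.8 to 32.01%). Over all domains at 10 or more the shares were 36.8% and 30.4%. Strong TC-32-only domains were also wider than overlapping ones of the same class, with medians of 3343 bp and 1965 bp from 20 to 30. Split by width at a −log10 q of 20 or more, the turned order was clear in 1 class, from 2 to 5 kb, where TC-32 SMC1 lay in 49.1% (39.5 to 58.7%) of 112 TC-32-only domains and 30.3% (28.5 to 32.02%) of overlapping ones. In TC-32-only and overlapping domains the intervals overlapped in the other classes, with 24.1% (10.3 to 43.5%) and 27.6% (23.13 to 32.34%) under 1 kb, 22.2% (12.04 to 35.6%) and 21.17% (19.6 to 22.8%) from 1 to 2 kb, and 69.2% (57.8 to 79.2%) and 72.4% (68.8 to 75.7%) at 5 kb or more. TC-71 SMC1 from 2 to 5 kb lay in 3.57% (0.982 to 8.89%) and 12.1% (10.9 to 13.34%). At a −log10 q from 10 to 20, the intervals for TC-32 SMC1 overlapped in each width class under 5 kb. They barely did so from 1 to 2 kb, at 23.6% (19.496 to 28.1%) in TC-32-only and 17.7% (15.99 to 19.523%) in overlapping domains. From 2 to 5 kb the shares were 39.1% (35.6 to 42.7%) and 36.2% (33.7 to 38.8%). At 5 kb or more TC-32 SMC1 was less frequent in TC-32-only domains, at 53.5% (47.0 to 59.8%) against 64.5% (60.3 to 68.7%).

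Cohesin peaks inside TC-32-only domains were then followed into TC-71. Of all TC-32 SMC1 peaks, 49.7% had no overlapping TC-71 peak. Inside TC-32-only domains, 279 of 1928 TC-32 SMC1 peaks were also listed in TC-71 (14.5%, 12.9 to 16.1%), against 33.7% (32.4 to 34.9%) of 5337 inside overlapping domains and 57.4% (56.8 to 58.1%) of 24248 in no TC-32 H3K27ac domain. The share was lower in TC-32-only than in overlapping domains on 22 of 23 chromosomes, chromosome 17 being the exception at 41.0% and 40.8%, and lower than outside domains on 23 of 23. SMC1 peaks in TC-32-only domains were also weaker, with a median authors' fold of 4.53 and a median rank percentile of 20.7 in the TC-32 list, against 4.89 and 31.5 in overlapping domains and 7.18 and 56.1 outside domains.

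Within rank quartiles of the TC-32 SMC1 list, which match peak strength only coarsely, the share was lowest in TC-32-only domains each time. Strength within a quartile was not compared between the groups. In the highest quartile overlapping domains were not below the peaks outside domains. In the highest quartile, 85.6% (79.8 to 90.2%) of 194 peaks in TC-32-only domains were listed in TC-71, against 93.1% (91.1 to 94.8%) in overlapping domains and 91.4% (90.7 to 92.1%) outside. In the second quartile the shares were 36.098% (29.5 to 43.1%), 62.4% (59.3 to 65.5%) and 66.5% (65.3 to 67.6%), and in the third 6.22% (4.14 to 8.92%), 25.4% (23.04 to 27.8%) and 37.8% (36.6 to 39.0%). In the lowest they were 1.10% (0.568 to 1.91%), 5.79% (4.87 to 6.84%) and 16.8% (15.7 to 17.9%). Of the SMC1 peaks in TC-32-only domains, 56.8% were of this lowest quartile. With the TC-32 SMC1 list cut to the length of the TC-71 list, 53.3% of the peaks in TC-32-only and 71.9% of those in overlapping domains were listed in TC-71.

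**Figure D3:**
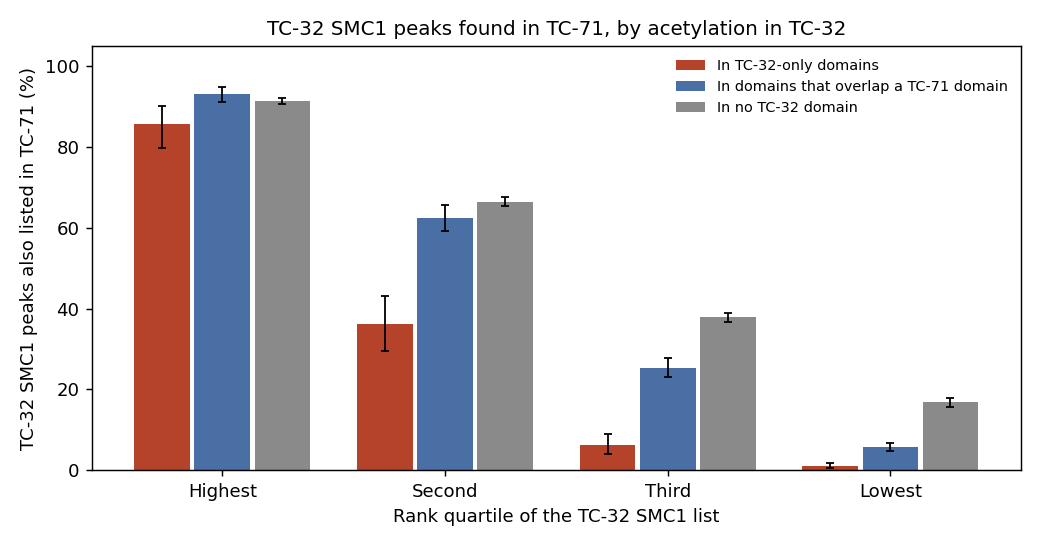
Percentage of TC-32 SMC1 peaks that overlap a TC-71 SMC1 peak, by rank quartile of −log10 q in the TC-32 list and by where the peak lies; error bars are exact 95% intervals for counting error. Peaks in TC-32-only domains are the lowest of the 3 groups in each quartile, at 85.6%, 36.098%, 6.22% and 1.10%.

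Several members held TC-32 SMC1 peaks that were not listed in TC-71. At 14q22.2 (chromosome 14, 55031760 to 55034978, fold 5.86), 5 TC-32 SMC1 peaks lay in a single domain of 3219 bp, the strongest with a fold of 10.498, and 0 were listed in TC-71. At 3q24 a second member (chromosome 3, 147123559 to 147129992, fold 5.84) held 4 TC-32 peaks and 0 of TC-71. At 1q44, a band of olfactory receptor genes, the member at chromosome 1, 248019752 to 248022706 (fold 5.99) held a TC-32 SMC1 peak of fold 15.9 that was not listed in TC-71. At 9q22.1 (chromosome 9, 91347332 to 91364157, fold 4.34) 5 TC-32 peaks and 1 TC-71 peak were listed.

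Elsewhere cohesin was listed in TC-71 although the acetylation was not. The strongest such member lay at 9p22.3 (chromosome 9, 14343393 to 14353544, fold 7.41), the band of the nuclear factor gene NFIB, where the SMC1 fold was 13.33 in TC-32 and 12.9 in TC-71, at a peak on the domain's edge. At 8p11.21 (chromosome 8, 41997067 to 42000910, fold 6.04) it was 5.88 in TC-32 and 6.57 in TC-71, and at 1q32.2 (chromosome 1, 209791280 to 209801676, fold 4.55) 8.49 in TC-32 and 12.1 in TC-71. Folds from lists called separately are set side by side here and not compared. Only TC-71 had a listed SMC1 peak at 7 members.

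SMC1 peaks close to a domain were counted where none lay inside it. In TC-32, 17.4% (16.4 to 18.5%) of the 5417 TC-32-only domains with no peak inside had one within 5 kb, against 15.8% (15.1 to 16.6%) of such overlapping domains. In TC-71, 7.98% (7.35 to 8.65%) of the 6832 TC-32-only domains with no peak inside had one within 5 kb, against 11.02% (10.47 to 11.6%) of such overlapping domains. Within domains at least 2 kb wide, 55.1% (52.2 to 58.0%) of the TC-32 SMC1 summits in TC-32-only domains lay in the middle one of 3 equal parts, against 47.0% (45.4 to 48.6%) in overlapping domains. The reverse group, the 1680 TC-71-only domains, held TC-71 SMC1 in 11.5% (10.0018 to 13.11%) and TC-32 SMC1 in 11.9% (10.4 to 13.6%) of cases, and these intervals overlap. Both shares use the full SMC1 lists, of which that of TC-32 is longer, and shares at equal length were not computed here. The ratio of TC-71 to TC-32 SMC1 overlaps was 0.953 in TC-71-only domains. It was 0.357 in TC-32 domains that overlap a TC-71 domain and 0.129 in TC-32-only domains.

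BORIS (CTCFL), a germ-line paralog of CTCF, was rarely met. A TC-71 BORIS peak lay in 5 TC-32-only domains (0.0706%, 0.0229 to 0.165%), against 281 overlapping ones (1.78 to 2.25%). The 5 were at 2q32.3, 3q21.3, 6p21.31, 9q34.11 and 19q12, and each held a TC-32 SMC1 peak. The TC-71 BORIS list holds 534 peaks and that of TC-32 only 6. A TC-32 BORIS peak lay in 1 member (0.0141%), against 2 overlapping domains (0.0142%); the member lay at 1q21.2 (chromosome 1, 147993648 to 147994274, fold 6.33).

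Few TC-32-only domains lay next to an acetylated region of TC-71. The gap to the nearest TC-71 domain had a median of 42974.5 bp and a range from 2 to 3903966 bp. A gap under 5 kb was found for 748 members (10.6%), and 2125 (30.02%) were 100 kb or more away. The nearest TC-71 domain was itself overlapped by a TC-32 domain for 81.4% of members. The farthest member lay at 4q13.1 (chromosome 4, 61749871 to 61750307, fold 4.15), and 3 of the next 5 lay at 2p12, of which the one at chromosome 2, 78288369 to 78293459 (fold 5.84) held 2 TC-32 SMC1 peaks. Members under 1 kb from a TC-71 domain had a median width of 958 bp. In the 6 classes from 1 kb up width hardly varied, with medians between 1552 and 1702 bp. The median fold rose with each class of gap, from 3.602 under 1 kb to 4.006 at 1 Mb or more. Whether the share with TC-32 SMC1 followed width or fold was not tested. TC-32 SMC1 became more frequent as the gap grew. It lay in 9.09% (3.41 to 18.7%) of members under 1 kb from a TC-71 domain, in 15.5% (12.9 to 18.5%) at 1 to 5 kb, 18.2% and 20.9% in the next 2 classes up to 50 kb, 25.2% at 50 to 100 kb, 30.2% (28.2 to 32.29%) at 100 kb to 1 Mb and 32.7% (23.5 to 42.9%) beyond. TC-71 SMC1 lay in 1.02% to 4.08% of members in these classes.

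**Figure D4:**
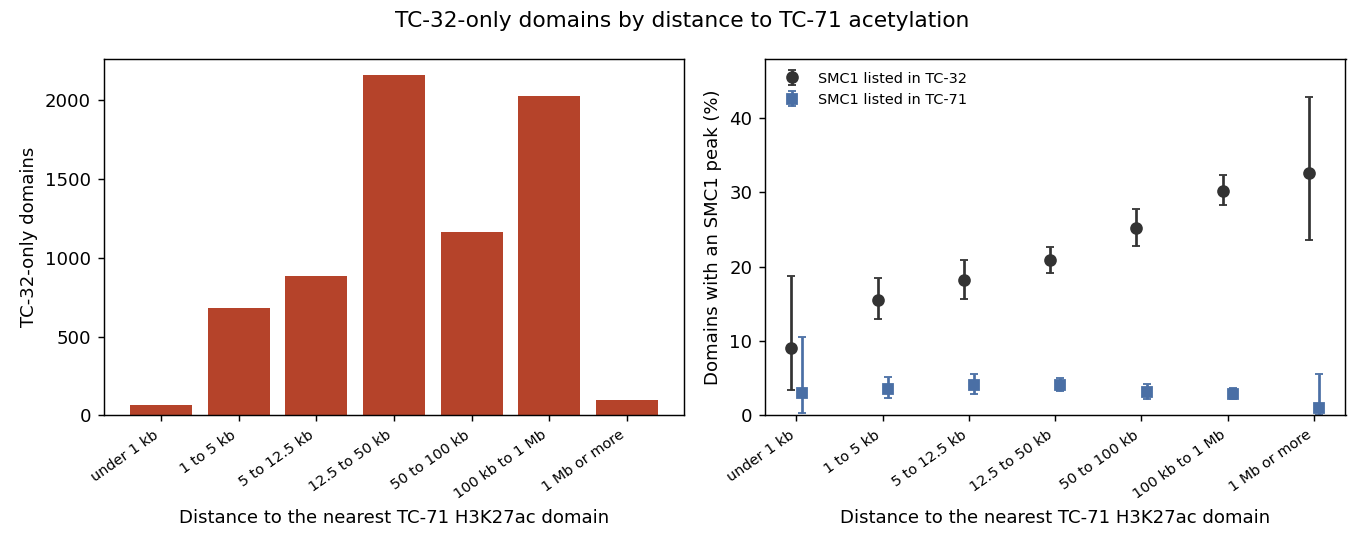
Number of TC-32-only domains (left) and percentage of them with an SMC1 peak of TC-32 (circles) or TC-71 (squares) (right) by distance to the nearest TC-71 H3K27ac domain; error bars are exact 95% intervals for counting error. The TC-32 share goes from 9.09% in the nearest to 32.7% in the farthest class, and the TC-71 share stays at or under 4.08%.

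Most members had no other member within 0.0125 Mb, and members also came in rows along the chromosome. With gaps of at most 0.0125 Mb joined, 1811 members (25.6%, 24.6 to 26.6%) shared a cluster with another member, against 28.2% (27.5 to 29.0%) of overlapping domains among themselves. The groups hold 7078 and 14049 domains, and a share in clusters depends on how many domains are joined, so these 2 shares are not on an equal footing. There were 666 pairs, 109 clusters of 3, 25 of 4, 8 of 5 and 2 of 6. Clustered members were wider than single ones, with a median of 2111 bp against 1481 bp, and held TC-32 SMC1 in 24.6% (22.7 to 26.7%) against 23.07% (21.9 to 24.23%). Going along the chromosome through all TC-32 domains at the threshold, the domain after a TC-32-only one was TC-32-only in 48.3% (47.1 to 49.5%) of cases, and the domain after an overlapping one in 26.0% (25.3 to 26.8%). At gaps of 50 kb or more these shares were still 44.1% (42.4 to 45.8%) and 28.6% (27.5 to 29.7%).

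The clusters with most members lay at 17q25.3 (chromosome 17, 75403993 to 75464603), the band of the septin gene SEPTIN9, and at 2p21 (chromosome 2, 43545357 to 43588369), the band of THADA, with 6 members each. The 17q25.3 cluster had TC-71 domains between its members, 2 in its span, and the 2p21 cluster had 0 and lay 65244 bp from the nearest. Of the clusters of 5, that at 9q22.1 (chromosome 9, 91331049 to 91379796) covered most sequence, 28.5 kb, with 9 TC-32 SMC1 peaks and 2 of TC-71, and that at 16q23.2 (chromosome 16, 80574309 to 80605593) lay 433610 bp from TC-71 acetylation.

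Unbroken rows of TC-32-only domains reached 19 members. One row of 19 lay at 1q44 (chromosome 1, 247611199 to 248865921) with 15 TC-32 SMC1 peaks and 1 of TC-71, the other at 2q36.3 (chromosome 2, 229509769 to 230579805), the band of the Notch ligand gene DNER, with 20 and 3. The span at 1q44 held 0 TC-71 H3K27ac domains and that at 2q36.3 held 1. Rows of 14 lay at 1q25.2, 13q14.11, 9q22.1 and from 18q22.2 to 18q22.3, the last of these with 7 TC-71 domains that met only weaker TC-32 domains or none. Of the 12 longest rows, 4 lay on 1q. Rows of at least 5 held 25.3% of members, and rows of at least 10 held 5.95%.

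Stretches of the genome without a listed TC-71 peak of any antibody were also counted; they coincide with the rows in part, since each of the 12 longest rows had a TC-71 SMC1 peak in its span. The 236 stretches of at least 1 Mb without a TC-71 peak held 284 members (4.01%), and the 2090 of at least 250 kb held 1745 (24.7%). The share of the genome in such stretches was not computed. Overlapping domains cannot lie in them, because each meets a TC-71 domain. These counts therefore do not show whether members gather there. The stretches with the highest number of members, 13 each, lay at 13q14.11 (chromosome 13, 43545164 to 44453104), the band of ENOX1, and 1q44 (chromosome 1, 247553724 to 248406528). The stretch at 5q23.2 (chromosome 5, 123211720 to 125759031) held 12 members and 30 TC-32 SMC1 peaks over 2547 kb. Copy number was not analysed here, and its part in these rows and stretches was not tested.

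TC-32-only domains were found in 757 of the 793 bands that had a TC-32 domain at the threshold. By number, 1q32.1 led (44 of 103 domains), and other bands with many were 19p13.3 (39 of 185), 2q37.3 (36 of 85) and 1q41 (35 of 62). Among the 448 bands with at least 20 domains, the highest shares were at 6p25.3 (17 of 22), the band of the forkhead genes FOXC1 and FOXF2, 18q22.3 (17 of 23), 4q35.2 (17 of 24) and 3q26.32 (29 of 41). The lowest were at 11q12.3 (1 of 34) and 3p21.2 (1 of 21). By arm the share ran from 17.5% (14.4 to 21.02%) on 19p and 18.8% (15.7 to 22.26%) on 19q to 47.8% (40.9 to 54.8%) on 5p and 48.7% (39.3 to 58.2%) on 18p, and it was 39.7% (36.8 to 42.7%) on 1q.

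Band staining, which follows gene density and base composition and was not used by the rule, differed as well. Unstained bands held 52.0% (50.9 to 53.2%) of TC-32-only and 59.8% (59.0 to 60.7%) of overlapping domains, and the darkest bands, poor in genes, held 11.7% (10.97 to 12.48%) and 7.03% (6.62 to 7.47%). Read the other way, 30.5% (29.6 to 31.3%) of TC-32 domains in unstained bands were TC-32-only, and 45.6% (43.3 to 47.9%) of those in the darkest bands.

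Bands of textbook developmental genes were counted from lists chosen with earlier results of these data known, beside the 33.5% of all domains. In 4 bands of ZIC and SOX genes, 55 of 118 domains were TC-32-only (46.6%, 37.4 to 56.0%), with 12 of 20 at 3q24 and 28 of 53 at 13q34 but 6 of 22 at 13q32.3, the band of ZIC2. In the T-box bands 14 of 34 were, with 10 of 14 at 12q24.21 and 4 of 20 at 17q23.2, the band of TBX2 and TBX4. The 4 HOX bands had 41 of 194 (21.134%, 15.6 to 27.6%), and at 12q13.13, the band of HOXC, 8 of 70. Bands of known EWSR1-FLI1 targets had 55 of 186 (29.6%, 23.12 to 36.7%), with 2 of 6 at Xp21.2, the band of NR0B1, and 8 of 26 at 11q13.3, the band of CCND1. Bands of mesenchymal genes had 67 of 229. Those of neural crest regulators had 68 of 203, or 33.5%, the same share as all domains. In this list the share was highest at 17q24.3, the band of SOX9, with 7 of 13. It was lowest at 22q13.1, the band of SOX10, with 12 of 62. The interval at 17q24.3 included the share of all domains, and that at 22q13.1 lay below it.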

How the data were processed

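The authors deposited narrow peaks (BORIS, SMC1) and broad domains (H3K27ac). For each interval the deposited lists give a score (10 times the −log10 q without decimals), a fold enrichment (a ratio to background) and, for the comparison with input, a −log10 of p and of q. Per the submitters' processing notes, MACS2 2.1.1, deepTools 2.2.4, Picard, STAR 2.5.1b, SAMtools 1.3.1 and hg19 were involved, in roles they do not state. Neither call settings nor the pooling of replicates is given in the sources used here. Folds are the authors' and describe peaks within a list.

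Repeated intervals were kept once with their highest −log10 q, on chromosomes 1 to 22 and X. Overlap meant at least 1 bp. Coordinates are hg19, counted from 1; 0 intervals passed an hg19 chromosome end. Bands came from circlize 0.4.16 and were assigned by domain midpoint. Members named are the 12 highest by −log10 q, the 6 widest, 6 highest by fold, 6 farthest from TC-71 domains, 6 with most TC-32 SMC1 peaks, 8 largest clusters, and bands by number and share; the text names a part. Members with TC-71 SMC1 or BORIS, rows, arms, stretches without TC-71 peaks and further members by −log10 q were added after values were seen. The members and lists were chosen with earlier results of these data known. A few bands and rows are not reported here. No sequence is shown, since no hg19 genome was used here. Alternatives changed the threshold, the overlap, the list lengths (ranked by −log10 p), merging, the SMC1 window and the cluster gap. Software was scipy 1.17.1, pandas 2.3.3, matplotlib 3.10.9, numpy 2.4.6 and Python 3.11.15. The interval code was tested on simulated data.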

Additional observations from a re-analysis of the deposited data

How the results depend on the processing

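No paired analysis was possible because both samples of a line and antibody share a list without a value for either sample, which also bars a fit without one of them. Among 89 values under other settings, 49 left the interval of the reported share or median, or the range within 1.5 times the reported count, and 40 did not. TC-71 SMC1 was lower in TC-32-only than in overlapping (shared) domains under the 9 settings run for it, and the share of TC-32 SMC1 peaks listed in TC-71 under the 8 run for it; TC-32 SMC1 was lower under 8 of 9, the exception being a −log10 q of at least 10. The cause was not tested. Equal H3K27ac lists changed nothing, because all TC-32 domains at the threshold remain in them. The values of this setting could not move, yet they are counted among the 40 and in the tallies of 9 and 8 settings. Equal SMC1 lists likewise could not move the TC-71 SMC1 shares, since only the TC-32 list was cut.

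Raising the −log10 q to 10 kept 1890 TC-32-only domains, with a median width of 2501 bp, a median fold of 4.71, a median distance of 47191 bp to TC-71 domains, 36.8% with TC-32 SMC1 (shared 30.4%), 11.16% in clusters and 54.4% in unstained bands; 9.19% of their SMC1 peaks were listed in TC-71 (shared 31.9%). Every listed domain gave 19248, with 887 bp, 3.13, 31508 bp, 12.6% with TC-32 SMC1 (shared 26.32%), 2.30% with TC-71 SMC1 (shared 11.6%), 49.0% in clusters and 19.3% of SMC1 peaks in TC-71. With less than 50% of a domain covered counted as absent, the values were 1845 bp, 3.904, 19448.5 bp, 27.2% with TC-32 SMC1 (shared 27.6%), 5.85% with TC-71 SMC1, 31.4% in clusters, 53.3% in unstained bands, and 19.3% of SMC1 peaks in TC-71 (shared 35.8%). With no TC-71 domain within 5 kb, the median distance was 53551 bp and the median fold 3.82. Merging domains within 1 kb gave a median width of 1674 bp, 24.5% with TC-32 SMC1 and 23.5% in clusters. SMC1 peaks with a −log10 q of at least 5 lay in 17.7% (TC-32) of TC-32-only and 24.4% (TC-32) and 11.1% (TC-71) of shared domains, and 19.2% and 37.9% of TC-32 peaks in them were listed in TC-71. SMC1 lists of equal length gave 6.32% and 12.97% with TC-32 SMC1, and 53.3% and 71.9% of peaks in TC-71. SMC1 summits within 500 bp gave 26.6% (TC-32) and 4.80% (TC-71) of TC-32-only and 31.4% and 14.7% of shared domains. Members joined within 5 kb were in clusters in 14.2% of cases.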
